A study of Mus musculus with 6 samples.

Results

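The platelet-derived growth factor (PDGF) and vascular endothelial growth factor (VEGF) genes examined here are the ligands Pdgfa, Pdgfb, Pdgfc, Pdgfd, Vegfa, Vegfb and Vegfc, the PDGF receptors Pdgfra and Pdgfrb, and the VEGF co-receptor Nrp1. They were found in the gene count table by symbol, and they make up 10 of its 41721 genes. The table listed 9 of them under their own symbol. The row taken as Vegfa carried an identifier in place of a symbol and was found by its description, a VEGFA protein, so its identity rests on that description. All 10 genes passed the filter on low counts.

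The 6 libraries came from mouse aortic smooth muscle cells (MASMCs) of the abdominal aorta, 3 from Pdk4fl/fl mice and 3 from Pdk4SMKO mice, all treated with angiotensin II (Ang II), a vasoconstrictor peptide hormone. Pdk4 encodes a kinase that inhibits the pyruvate dehydrogenase complex. According to the methods of the study, both genotypes carried loxP sites around exons 4 to 6 of Pdk4 and both received tamoxifen, while Pdk4SMKO also carried Myh11-creERT2, a tamoxifen-dependent Cre driven by the smooth muscle myosin promoter. The cells were isolated with collagenase from mice aged 10 weeks, on a C57BL/6J background, and used at passages 4 to 8. Per the methods they were starved of serum for 48 h before treatment, with Ang II at 1 μM for 48 h. Pdk4fl/fl cells had no Cre, and no library was without Ang II. The study describes the replicates as biological, and neither it nor the labels say whether they were separate cultures or animals. If they were not, the p-values below measure the spread between these samples only, which may be technical.

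PDGFs act as dimers. PDGF-AA and PDGF-CC bind mainly the receptor PDGFRα, PDGF-DD mainly PDGFRβ, and PDGF-BB both. In the vessel wall, endothelial PDGF-B attracts smooth muscle cells and pericytes that carry PDGFRβ, and PDGF is a classical signal for growth and migration of smooth muscle cells. VEGF-A binds VEGFR1 (Flt1) and VEGFR2 (Kdr), VEGF-B binds VEGFR1, and VEGF-C and VEGF-D bind VEGFR3 (Flt4), the receptor of lymphatic endothelium. Neuropilin-1, the product of Nrp1, binds VEGF-A together with VEGFR2, and also class 3 semaphorins.

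The depth was 16526044 to 22481670 counts per library. Pdk4 itself had 570, 639 and 421 counts in Pdk4fl/fl and 110, 182 and 141 in Pdk4SMKO, a mean of 19.8% of the Pdk4fl/fl level in CPM. These are gene totals, which also hold reads from outside the floxed exons. CPM here are read counts relative to a fixed library size, corrected with factors from the trimmed mean of M values (TMM). The genotypes differed widely, with a correlation of log2 CPM of 0.982 to 0.991 between libraries of 1 genotype and of 0.723 to 0.747 between genotypes. Of 14085 genes tested, 3733 (26.5%) were called lower and 4616 (32.8%) higher in Pdk4SMKO by edgeR's quasi-likelihood test, at a Benjamini-Hochberg adjusted p under 0.05 and at least a 2-fold difference. Scaled by library size alone, 2390 (17.0%) were lower and 6184 (43.9%) higher. Xist, which is transcribed from the inactive X chromosome of female cells, had 3 to 5 counts in Pdk4fl/fl and 321 to 610 in Pdk4SMKO, whereas the methods state that the animals were male. The methods also describe the Myh11-Cre transgene as Y-linked, so that only males inherit it, yet the Xist counts were in Pdk4SMKO. Whether the Pdk4SMKO cultures held cells of more than 1 sex or origin was not tested. A sex difference between the cultures and the genotype cannot be told apart here.

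Markers of other cell types also moved with genotype, and their part in the results below was not tested. Of 8 smooth muscle markers tested, 4 were higher (Acta2, Myh11, Lmod1, Des) and 3 lower (Tagln, Smtn, Cnn1), with a summed level of 785 to 811 CPM in Pdk4fl/fl and 723 to 954 CPM in Pdk4SMKO. Myh11, a defining gene of contractile smooth muscle, had only 8 to 10 counts in Pdk4fl/fl and 44 to 62 in Pdk4SMKO. The fibroblast list rose in 5 of 7 genes tested and fell in 1 (Dpt), with summed levels of 608 to 830 and 5150 to 7063 CPM. Most of this sum was Col1a1, with means of 620 and 5901 CPM. The mesothelial list rose in 7 of 7, with 74.2 to 99.99 and 723 to 1325 CPM. The macrophage list rose in 7 of 8 rows tested and fell in 1 (Cd68), with 21.5 to 38.3 and 38.0 to 119 CPM, and Adgre1, C1qa, C1qb, Ptprc and Tyrobp were at or under 3 counts in every Pdk4fl/fl library. The 2 rows described as Lyz2, a macrophage lysozyme, rose from 0 to 6 counts to 151 to 1292 counts. The pericyte list rose in 3 of 6 and fell in 1, with 28.0 to 48.6 and 57.1 to 84.2 CPM. Of the endothelial list, both genes tested fell (Erg and Vwf), the sum was 5.90 to 7.80 and 0.846 to 1.57 CPM, and Cdh5, Cldn5, Emcn and Tie1 had at most 3 counts in every library of both genotypes. In bulk RNA, fewer cells of a type and less RNA per cell cannot be told apart.

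The start regions of the VEGF genes and Nrp1 are shown because these genes share a promoter feature while their calls differed. RefSeq promoters of the GRCm38.p6 build were matched for 8 of the 10 genes, with 2 start sites each for Pdgfa and Vegfa, giving 10 windows of 250 bases ahead of the start. Pdgfb and Pdgfrb were not matched. The GC box GGGCGG, the core letters bound by SP1-type factors, was searched on both strands (as CCGCCC on the other) and was present in 7 of 10 windows, belonging to Pdgfa, Vegfa, Vegfb, Vegfc and Nrp1, against 32.7% of 32851 promoters of the same length. Each sequence below reads 5′ to 3′ on the strand of its gene and ends at the base before the start, with GC boxes in capitals. They are Vegfa (the first window, chr17:46032378-46032627, minus strand), Vegfb (chr19:6987652-6987901, minus strand), Vegfc (chr8:54077282-54077531, plus strand) and Nrp1 (chr8:128358823-128359072, plus strand).
Vegfa: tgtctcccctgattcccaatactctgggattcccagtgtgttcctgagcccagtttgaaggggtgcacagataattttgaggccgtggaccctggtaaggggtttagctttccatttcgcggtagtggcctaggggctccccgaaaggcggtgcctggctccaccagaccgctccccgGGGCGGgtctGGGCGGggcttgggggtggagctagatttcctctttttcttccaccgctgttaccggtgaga
Vegfb: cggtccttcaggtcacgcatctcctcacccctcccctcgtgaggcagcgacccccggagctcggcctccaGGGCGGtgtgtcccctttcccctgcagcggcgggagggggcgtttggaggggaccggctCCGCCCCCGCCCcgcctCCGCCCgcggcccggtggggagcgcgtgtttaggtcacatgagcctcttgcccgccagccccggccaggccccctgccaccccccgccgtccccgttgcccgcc
Vegfc: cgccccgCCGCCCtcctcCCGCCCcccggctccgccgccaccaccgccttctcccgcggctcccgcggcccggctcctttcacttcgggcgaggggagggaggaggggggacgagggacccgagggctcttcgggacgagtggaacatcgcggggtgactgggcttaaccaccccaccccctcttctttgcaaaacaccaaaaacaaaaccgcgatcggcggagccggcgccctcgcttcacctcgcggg
Nrp1: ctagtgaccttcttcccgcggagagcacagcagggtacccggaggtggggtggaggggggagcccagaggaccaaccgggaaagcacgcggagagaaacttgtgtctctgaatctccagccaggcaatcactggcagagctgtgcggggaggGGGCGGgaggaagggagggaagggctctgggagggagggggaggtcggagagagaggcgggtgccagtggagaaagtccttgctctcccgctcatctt
The Vegfb window held 4 GC boxes, 2 of them abutting in 1 run of capitals, at a GC content of 76.4%. Vegfa and Vegfc held 2 each, at 59.2% and 71.6% GC, and Nrp1 held 1, at 64.4%. The median over all promoters was 52.4% GC. For the hypoxia response core, only the letters ACGTG and their reverse complement CACGT were searched. The related letters GCGTG or CACGC, which occur in the Vegfb and Nrp1 windows above, were not counted. ACGTG or CACGT was in the second Vegfa window only, against 16.6% of promoters. That window (chr17:46025164-46025413, minus strand) lies downstream of the first Vegfa start, so these letters are not ahead of that start. It is also 1 of the 7 windows with a GC box. The TEAD-type letters, GGAATG or the reverse complement CATTCC, were in the Pdgfc window only, against 12.6%, and TATAAA or the reverse complement TTTATA in the Pdgfd window only, against 12.4%. Of the 4 genes shown, Vegfb was called lower in Pdk4SMKO, Vegfc and Nrp1 higher, and Vegfa was not called. Any link of the GC box or GC content to these calls was not tested.

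Of the 10 genes, 3 were called higher in Pdk4SMKO (Pdgfrb, Vegfc and Nrp1) against 32.8% of all genes, 1 was called lower (Vegfb) against 26.5%, and 6 were not called (Pdgfa, Pdgfb, Pdgfc, Pdgfd, Pdgfra and Vegfa). Called in either direction were 4 of 10, against 59.3% of all genes. At an adjusted p under 0.05 without a limit on the fold, 8 of 10 passed, against 79.1%, and in CPM the genotypes did not overlap for the same 8 genes, against 81.8%. With library size alone, 8 of 10 were called in either direction, against 60.9% of all genes, so whether the calls lay below or above the background turned with the scaling, and neither difference was tested. The median log2 fold change of Pdk4SMKO against Pdk4fl/fl was 0.68 over the 10 genes and 0.12 over all genes tested. With library size alone these were 1.29 and 0.72, a shift of 0.61 in the median of all genes. Of the 10 genes, 9 were above 0 with TMM, upper-quartile or library-size scaling and 8 with the size factors of DESeq2.

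**Figure D1:**
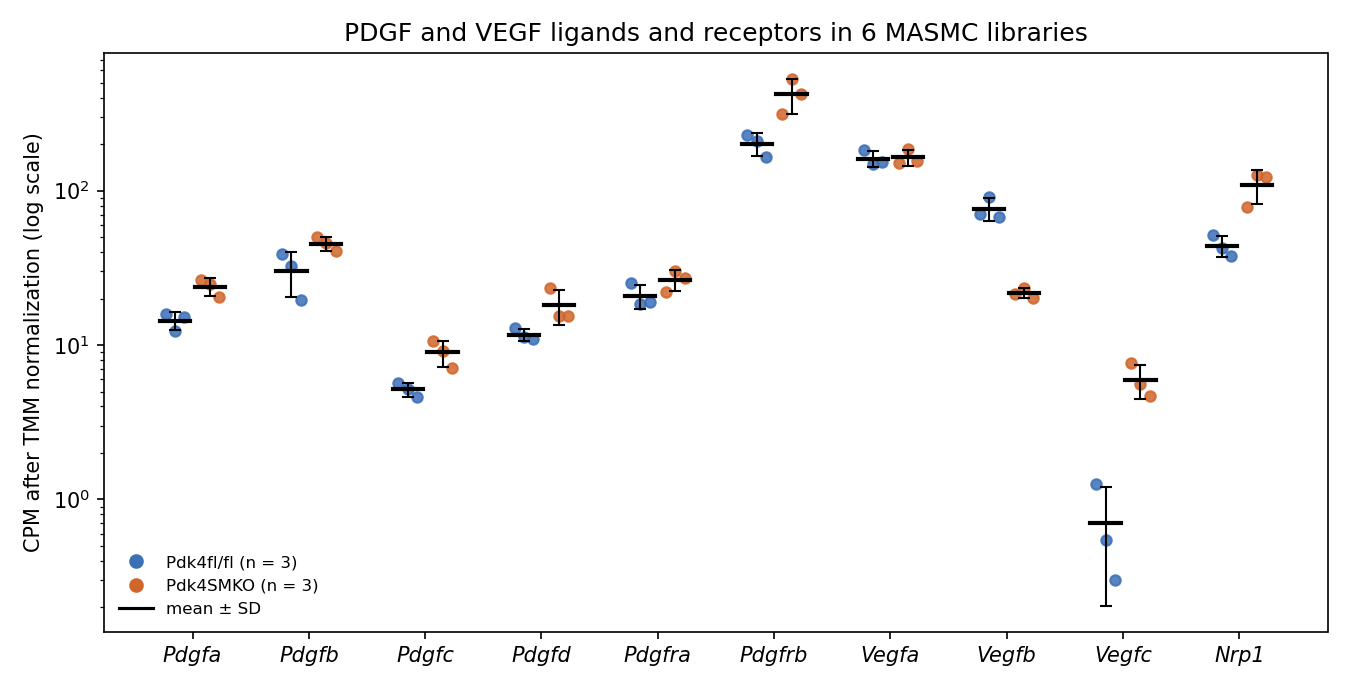
CPM after TMM normalization on a log axis for the 10 genes in the 6 libraries, with Pdk4fl/fl in blue and Pdk4SMKO in orange. Points are libraries, and black lines give the mean ± SD (n = 3). The genotypes overlap for Pdgfra and Vegfa, Vegfb lies lower in Pdk4SMKO, and Vegfc shows the widest gap of the 10.

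Among the PDGF ligands, every one was higher in each Pdk4SMKO library than in any Pdk4fl/fl library, as were 43.5% of all genes, and none reached the 2-fold limit under TMM scaling. With library size alone all 4 passed it, at log2 fold changes of 1.18 to 1.40. In what follows, values for a genotype are given in the order of replicates 1, 2 and 3. Pdgfb, whose product homodimerizes and acts on both receptors, lies at chr15:83458721-83477606 (minus strand, coordinates of the C57BL/6NJ assembly used in the table, as for all genes below). It had 38.7, 32.3 and 19.6 CPM in Pdk4fl/fl and 50.2, 45.5 and 40.5 CPM in Pdk4SMKO. Pdk4fl/fl replicate 3 was the lowest library, and the gap between the highest Pdk4fl/fl and the lowest Pdk4SMKO library was narrow. The log2 fold change was 0.59 (SE 0.22, 95% interval 0.10 to 1.07, adjusted p = 0.031, edgeR). It was 0.34 without Pdk4fl/fl replicate 3, and the adjusted p was 0.059, 0.072 and 0.058 without Pdk4fl/fl replicate 2, Pdk4SMKO replicate 1 or Pdk4SMKO replicate 2.

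Pdgfa, whose product signals through PDGFRα, lies at chr5:149232517-149255478 (minus strand). It had 15.8, 12.2 and 15.1 CPM in Pdk4fl/fl and 26.5, 24.8 and 20.4 CPM in Pdk4SMKO, with all 3 Pdk4SMKO libraries above all Pdk4fl/fl libraries. The mean was 14.4 ± 1.89 CPM in Pdk4fl/fl and 23.9 ± 3.18 CPM in Pdk4SMKO (SD, n = 3), a log2 fold change of 0.73 (SE 0.17, interval 0.36 to 1.11, adjusted p = 0.0023, edgeR). An antisense gene on the other strand, 6330403L08Rik, overlaps Pdgfa and had 26, 20 and 17 counts in Pdk4fl/fl and 149, 163 and 88 in Pdk4SMKO, against 237, 223 and 200 and 604, 499 and 415 counts for Pdgfa. The use of strand in counting is not given in the sources used here, so reads of these genes may not have been told apart.

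Pdgfc and Pdgfd encode ligands with a CUB domain that is removed by proteases before they can bind. Pdgfc (chr3:83881368-84068214, plus strand) had 5.67, 5.22 and 4.62 CPM in Pdk4fl/fl and 10.6, 9.16 and 7.11 CPM in Pdk4SMKO, on 61 to 95 and 145 to 241 counts. The genotypes did not overlap, and the log2 fold change was 0.79 (SE 0.22, interval 0.30 to 1.28, adjusted p = 0.0074, edgeR). Pdgfd (chr9:3165982-3382309, plus strand) had 12.8, 11.3 and 10.9 CPM in Pdk4fl/fl and 23.4, 15.5 and 15.4 CPM in Pdk4SMKO. Pdk4SMKO replicate 1 stood above the other two, and the log2 fold change was 0.63 (SE 0.20, interval 0.18 to 1.08, adjusted p = 0.015, edgeR). Without Pdk4SMKO replicate 1 it was 0.41 and missed the limit on the adjusted p, at 0.0506.

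The make-up of the PDGF ligands within a library does not depend on the scaling between libraries. By counts per kilobase of the gene's length in the table, Pdgfb made up 51.6% ± 8.25 of the 4 ligands in Pdk4fl/fl and 50.7% ± 1.69 in Pdk4SMKO (SD, n = 3, exact permutation p = 1). Pdgfa made up 24.0% ± 5.63 and 25.0% ± 1.17 (p = 0.8, exact permutation test), Pdgfd 19.2% ± 2.32 and 18.7% ± 2.44 (p = 0.7, exact), and Pdgfc 5.21% ± 0.473 and 5.68% ± 0.395 (p = 0.2, exact). The shares overlapped between genotypes for all 4 ligands. The sign for Pdgfa rested on single libraries, with a difference of 0.98 percentage points in all libraries, -1.02 without Pdk4fl/fl replicate 2 and 4.19 without Pdk4fl/fl replicate 3. The summed level of the 4 ligands was 23.5, 19.7 and 16.0 CPM per kilobase in Pdk4fl/fl and 35.3, 30.3 and 26.7 in Pdk4SMKO, 1.56-fold higher, at the smallest p that 3 libraries against 3 allow (exact two-sided permutation p = 0.1).

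Of the PDGF receptors, Pdgfrb was called higher and Pdgfra was not called, and the difference between them was tested only through their shares. Pdgfrb, encoding PDGFRβ of smooth muscle cells and pericytes, lies at chr18:62553967-62595042 (plus strand). It had 230, 210 and 165 CPM in Pdk4fl/fl and 314, 524 and 423 CPM in Pdk4SMKO. Pdk4SMKO replicate 2 was the highest library, and the lowest Pdk4SMKO library was above the highest Pdk4fl/fl library. The mean rose from 202 ± 33.0 to 420 ± 105 CPM (SD, n = 3), with a log2 fold change of 1.06 (SE 0.19, interval 0.62 to 1.49, adjusted p = 0.00056, edgeR). The value lay close to the 2-fold limit, and it was 0.92 without Pdk4fl/fl replicate 3 and 0.88 without Pdk4SMKO replicate 2, both under the limit.

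Pdgfra, encoding PDGFRα and more typical of fibroblasts, lies at chr5:78303537-78349133 (plus strand). It had 25.2, 18.3 and 19.0 CPM in Pdk4fl/fl and 22.2, 30.2 and 27.1 CPM in Pdk4SMKO. Pdk4SMKO replicate 1 was below Pdk4fl/fl replicate 1, so the genotypes overlapped. The log2 fold change was 0.35 (SE 0.18, interval -0.05 to 0.74, adjusted p = 0.097, edgeR), and the exact permutation p was 0.2. The adjusted p fell below 0.05, with the same sign and under the 2-fold limit, without Pdk4fl/fl replicate 1 (log2 fold change 0.50, adjusted p = 0.030) or Pdk4SMKO replicate 1 (0.47, adjusted p = 0.035), and under 3 other settings. Of all genes tested, 85.2% had a larger absolute log2 fold change. The summed fibroblast markers, mostly Col1a1, rose with genotype over the same libraries, as given above, while Dpt of that list fell.

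Within the receptor pair, Pdgfra made up 5.65%, 4.57% and 5.91% of counts per kilobase in Pdk4fl/fl and 3.72%, 3.05% and 3.39% in Pdk4SMKO. All Pdk4SMKO libraries were below all Pdk4fl/fl libraries. The mean share was 5.38% ± 0.713 in Pdk4fl/fl and 3.39% ± 0.337 in Pdk4SMKO, a difference of -1.99 percentage points (exact two-sided permutation p = 0.1, the smallest that 3 against 3 allow). Without division by length the difference was -3.38 percentage points. PDGFRβ transcripts made up the rest in both genotypes.

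Among the VEGF ligands, Vegfb was lower, Vegfc higher and Vegfa not called. Vegfb, encoding a ligand of VEGFR1 linked to fatty acid handling in muscle and heart, lies at chr19:4171383-4176492 (minus strand). It had 70.2, 91.1 and 67.8 CPM in Pdk4fl/fl and 21.5, 23.4 and 20.2 CPM in Pdk4SMKO. Every Pdk4SMKO library was far below every Pdk4fl/fl library, and the Pdk4SMKO libraries were close to each other. The mean fell from 76.4 ± 12.8 to 21.7 ± 1.65 CPM (SD, n = 3), to 28.4% of the Pdk4fl/fl level, with a log2 fold change of -1.82 (SE 0.15, interval -2.15 to -1.48, adjusted p = 1.8e-06, edgeR). Leaving out single libraries gave -1.91 to -1.66, and library size alone gave -1.21.

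Vegfc, the main growth factor of lymphatic endothelium, lies at chr8:55729290-55841166 (plus strand). It had 19, 10 and 4 counts in Pdk4fl/fl and 173, 113 and 95 counts in Pdk4SMKO, or 1.27, 0.549 and 0.303 CPM against 7.60, 5.62 and 4.66 CPM. The genotypes did not overlap, and the Pdk4fl/fl libraries rested on few counts, where 3 counts are 0.132 to 0.227 CPM by library. The mean rose from 0.706 ± 0.501 to 5.96 ± 1.5 CPM, 8.44-fold, with a log2 fold change of 3.06 (SE 0.44, interval 2.08 to 4.04, adjusted p = 0.0001, edgeR). It was 3.74 without Pdk4fl/fl replicate 1, which had the highest Pdk4fl/fl value. With a minimum of 10 counts in every library, Vegfc was not tested. In absolute terms it was still among the lower of the 10 genes in Pdk4SMKO, at 3.17 ± 0.795 CPM per kilobase.

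Vegfa, the main angiogenic factor and a target of hypoxia signalling, lies at chr17:49098338-49113975 (minus strand). It had 182, 148 and 152 CPM in Pdk4fl/fl and 150, 186 and 156 CPM in Pdk4SMKO. The libraries of both genotypes were interleaved. The means were 161 ± 18.9 and 164 ± 19.4 CPM, and the log2 fold change was 0.03 (SE 0.13, interval -0.27 to 0.33, adjusted p = 0.85, edgeR, exact permutation p = 0.6). This interval excludes a 2-fold difference in either direction under TMM scaling, and 98.7% of all genes tested had a larger absolute log2 fold change. The sign depended on the setting, from -0.06 to 0.13 over the fits without single libraries, and library size alone gave 0.63 (adjusted p = 0.00199, under the 2-fold limit).

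By counts per kilobase, Vegfb made up 51.7%, 63.4% and 55.6% of Vegfa, Vegfb and Vegfc in Pdk4fl/fl and 26.5%, 24.9% and 25.5% in Pdk4SMKO. Vegfa made up 47.5%, 36.3% and 44.1% in Pdk4fl/fl and 65.5%, 70.0% and 69.5% in Pdk4SMKO. Of these 3 genes by this measure, Vegfb led in all 3 Pdk4fl/fl libraries and Vegfa in all 3 Pdk4SMKO libraries. Without division by length, Vegfa had the higher CPM of the pair in every library of both genotypes, so the change of order rested on the lengths. The Vegfa share differed by 25.7 percentage points, the Vegfb share by -31.3 and the Vegfc share by 5.6, from 0.445% ± 0.310 to 6.04% ± 1.70, each with an exact two-sided permutation p = 0.1, the smallest possible. Without division by length the Vegfa difference was 18.0 percentage points. The lengths are those in the table, of 1605 bases for Vegfb, and transcript isoforms of other lengths would move these shares. The summed level of the 3 ligands was 84.6, 89.6 and 75.9 CPM per kilobase in Pdk4fl/fl and 50.5, 58.6 and 49.4 in Pdk4SMKO, 0.634-fold, without overlap (exact permutation p = 0.1).

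**Figure D2:**
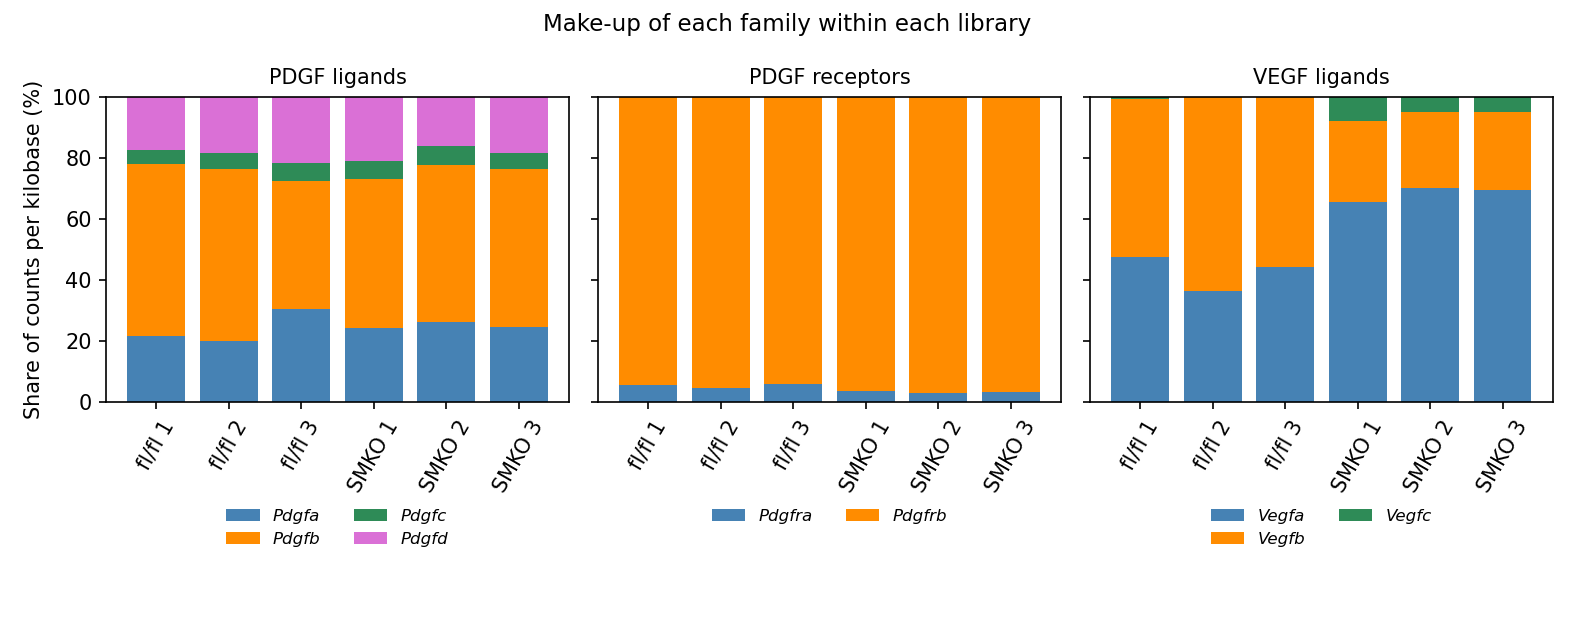
Stacked bars of the share (%) of counts per kilobase that each gene makes up of its family, for the 3 Pdk4fl/fl (fl/fl) and 3 Pdk4SMKO (SMKO) libraries, with PDGF ligands, PDGF receptors and VEGF ligands in separate panels. The 4 PDGF ligands keep overlapping shares, Pdgfra is under 6% of the receptor pair everywhere, and Vegfa passes Vegfb in Pdk4SMKO.

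Nrp1 (chr8:136586172-136742155, plus strand), the co-receptor, had 51.5, 42.7 and 37.8 CPM in Pdk4fl/fl and 78.2, 127 and 122 CPM in Pdk4SMKO. Pdk4SMKO replicate 1 was the lowest of its genotype and still above all Pdk4fl/fl libraries. The mean rose from 44.0 ± 6.94 to 109 ± 26.7 CPM, with a log2 fold change of 1.31 (SE 0.20, interval 0.87 to 1.75, adjusted p = 0.00014, edgeR) and 1.19 to 1.51 without single libraries. Pdk4SMKO replicate 1 was the lowest Pdk4SMKO library for Pdgfra, Pdgfrb, Vegfa and Nrp1, and the highest for Pdgfa, Pdgfb, Pdgfc, Pdgfd and Vegfc. For Vegfb it lay between the others.

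Ordered by counts per kilobase in Pdk4fl/fl, Vegfb was first at 47.6 ± 8.0 CPM per kilobase, above Pdgfrb at 36.8 ± 6.03 and Vegfa at 35.4 ± 4.15, whose ranges overlapped. Pdgfb (10.3 ± 3.33) and Nrp1 (7.33 ± 1.16) overlapped each other, as did Pdgfa (4.62 ± 0.607) and Pdgfd (3.74 ± 0.321). Pdgfra (2.08 ± 0.378), Pdgfc (1.02 ± 0.104) and Vegfc (0.375 ± 0.266) followed without overlap between neighbours. In Pdk4SMKO, Pdgfrb was first at 76.7 ± 19.2 CPM per kilobase, ahead of Vegfa at 36.1 ± 4.27. Nrp1 (18.2 ± 4.45), Pdgfb (15.6 ± 1.66) and Vegfb (13.5 ± 1.03) followed, and each overlapped its neighbour in that order. Pdgfa (7.68 ± 1.02) overlapped Pdgfd (5.79 ± 1.47), Vegfc (3.17 ± 0.795) overlapped Pdgfra (2.64 ± 0.402), and Pdgfc was last at 1.76 ± 0.343 CPM per kilobase. By this measure Vegfb thus moved from the first place to the fifth, where it overlapped Pdgfb, while Pdgfrb took the first. This change rested on the lengths. In CPM without division by length, Pdgfrb was first in both genotypes, at 202 in Pdk4fl/fl and 420 in Pdk4SMKO. Vegfb, at 76.4 and 21.7 CPM, was then below Vegfa, at 161 and 164 CPM.

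The remaining receptors and ligands of these families moved in both directions. Of the 7 further genes, 6 were tested, and 4 were called lower (Flt1, Kdr, Nrp2, Pdgfrl) and 2 higher (Vegfd, Flt4). Of all genes tested, 26.5% were called lower and 32.8% higher. Flt1, the receptor shared by VEGF-A and VEGF-B, had 88.1, 84.1 and 64.9 CPM in Pdk4fl/fl and 28.9, 29.3 and 22.9 CPM in Pdk4SMKO, a log2 fold change of -1.55 (SE 0.16, adjusted p = 8.7e-06, edgeR). Kdr, the main signalling receptor of VEGF-A in endothelium, had 268, 365 and 152 counts in Pdk4fl/fl and 99, 42 and 50 in Pdk4SMKO, with a log2 fold change of -2.47 (SE 0.31, adjusted p = 4.1e-05, edgeR). Both fell without overlap between genotypes. Of the endothelial list, Cdh5, Cldn5, Emcn and Tie1 were near 0 in both genotypes, and Erg fell from 44 to 48 counts to at most 1. Vwf had 21 to 38 counts in Pdk4fl/fl and 14 to 24 in Pdk4SMKO. Pecam1 had 8 to 25 and 0 to 6, and Tek 5 to 11 and 1 to 5. The part of these markers in Flt1 and Kdr was not tested.

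Flt4 had 20, 27 and 10 counts in Pdk4fl/fl and 793, 175 and 175 in Pdk4SMKO, a log2 fold change of 3.84 (SE 0.61, adjusted p = 0.0002, edgeR). Pdk4SMKO replicate 1 stood far above the others, and without it the log2 fold change was 2.84. That library also had the highest sums of smooth muscle (954 CPM), fibroblast (7063 CPM), pericyte (84.2 CPM), macrophage (119 CPM) and mesothelial (1325 CPM) markers. Of its macrophage sum, the 2 Lyz2 rows held 56.7 and 31.5 CPM. The part of these markers in Flt4 was not tested. Vegfd, which shares VEGFR3 with Vegfc and lies on the X chromosome, had 56.6, 49.4 and 66.2 CPM in Pdk4fl/fl and 118, 245 and 169 CPM in Pdk4SMKO, with a log2 fold change of 1.63 (SE 0.24, adjusted p = 0.00012, edgeR). All Pdk4SMKO libraries were higher. Its level was 23.7 ± 3.47 CPM per kilobase in Pdk4fl/fl and 73.1 ± 26.4 in Pdk4SMKO, above that of Vegfc in both genotypes and above that of Vegfa in every Pdk4SMKO library. With Vegfd included, the summed VEGF ligands were 107 ± 3.46 and 126 ± 30.9 CPM per kilobase, 1.18-fold, and the genotypes overlapped (exact permutation p = 0.4), so the lower sum above held for Vegfa, Vegfb and Vegfc alone.

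Nrp2, the co-receptor that binds VEGF-C, had 726, 663 and 449 counts in Pdk4fl/fl and 326, 418 and 298 in Pdk4SMKO, a log2 fold change of -1.26 (SE 0.20, adjusted p = 0.00018, edgeR). The difference had the opposite sign to that of Nrp1. With library size alone, Flt1 (-0.95) and Nrp2 (-0.66) were under the 2-fold limit, with the same sign. Pdgfrl, a receptor-like gene without a kinase domain, had 296, 348 and 306 counts and 79, 80 and 52 counts, with a log2 fold change of -2.63 (SE 0.21, adjusted p = 1.4e-06, edgeR). Pgf, the placental growth factor that binds VEGFR1, had 18, 10 and 2 counts in Pdk4fl/fl and 8, 1 and 2 in Pdk4SMKO and was not tested, and its genotypes overlapped. Summed over Flt1, Kdr and Flt4, the VEGF receptors had 7.81 ± 1.43 CPM per kilobase in Pdk4fl/fl and 4.42 ± 2.09 in Pdk4SMKO, with overlap (exact permutation p = 0.2), since Flt4 alone was 4.21 CPM per kilobase in Pdk4SMKO replicate 1.

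**Figure D3:**
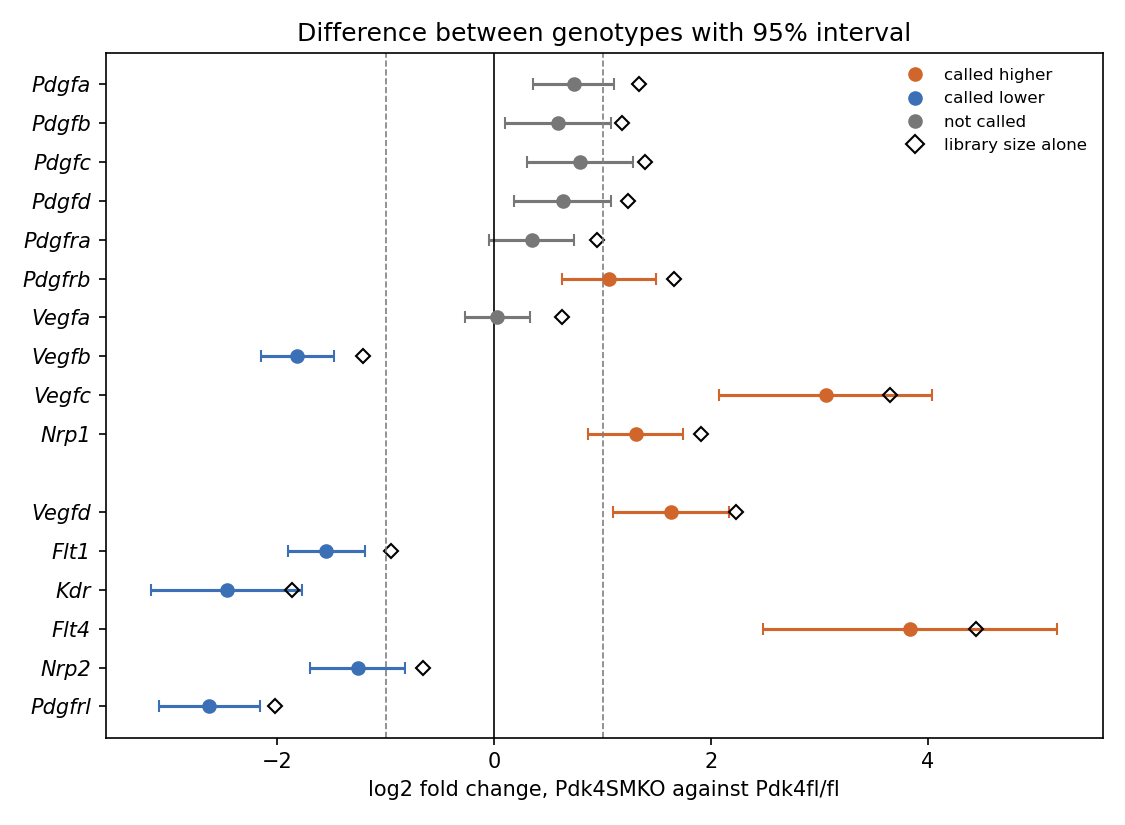
Log2 fold change of Pdk4SMKO against Pdk4fl/fl from edgeR with its 95% interval for the 10 genes (top) and 6 further ligands and receptors (bottom), colored by call. Open diamonds give the value with library size alone, which lies to the right of every point, and dashed lines mark the 2-fold limit. Pdgfra and Vegfa are the 2 of the 10 whose interval includes 0.

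Around these genes, 3 further lists covered ligand processing and binding, receptor adaptors and effectors, and negative regulators. Their calls are to be read against 32.8% higher and 26.5% lower among all genes tested. Of the 12 processing and binding genes tested, 6 were higher, 2 lower and 4 not called, with a median log2 fold change of 1.37 against 0.12 for all genes. The convertase gene Pcsk6 had 3, 5 and 1 counts in Pdk4fl/fl and 600, 496 and 427 in Pdk4SMKO (log2 fold change 6.91, SE 0.31, adjusted p = 3.6e-08, edgeR). Its relative Pcsk5 had 1, 0 and 0 counts in Pdk4fl/fl and 33, 26 and 17 in Pdk4SMKO, at least 6.04-fold higher against a floor of 3 counts per library. Ctgf, a matricellular protein that can bind VEGF-A, rose from 428 to 465 counts to 22078 to 43742 counts (log2 fold change 5.58, SE 0.28, adjusted p = 6.3e-08, edgeR). The other genes called higher were Ccbe1, which is needed for VEGF-C maturation (3.73), the matrix glycoprotein gene Thbs1 (3.00) and Lrp1, an endocytic receptor that modulates PDGFRβ (1.99).

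Plat, the gene of tissue plasminogen activator, which activates PDGF-CC, fell by 1.87 on the log2 scale (SE 0.13, adjusted p = 5.5e-07, edgeR), from 6164 to 10486 counts to 2977 to 3168 counts. Plau, the gene of urokinase, which can activate PDGF-DD, had a log2 fold change of 0.75 and was not called. Sdc4, a heparan sulfate proteoglycan gene, fell by 1.28. Furin, a general convertase, had 0.38 and was not called. Plg and Adamts3, a plasminogen and a VEGF-C protease gene, were not tested.

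Of the 32 adaptor and effector genes tested, 5 were higher, 5 lower and 22 not called, with a median of -0.003. Among all genes 59.3% were called in either direction, so calls were less frequent in this list. Values of some close relatives had opposite signs. Nck2 rose by 1.84 while Nck1 fell by 1.45 on the log2 scale, and both encode SH2/SH3 adaptors. Sos2, a Ras exchange factor gene, rose by 1.96, whereas Sos1 had -0.72 and was not called. Pik3r1, the p85α regulatory subunit of PI3K, rose by 2.13 (adjusted p = 5.7e-06, edgeR) and Pik3r2 had -0.34, not called. The adaptor gene Crkl fell by 2.20 (adjusted p = 1.5e-07, edgeR) and the Src family kinase gene Fyn fell by 2.11.

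Of the 15 negative regulators tested, 5 were higher, 3 lower and 7 not called, with a median of 0.32, against 32.8% higher and 26.5% lower among all genes. Cblb, a ubiquitin ligase gene, rose by 2.41 on the log2 scale (SE 0.15, adjusted p = 3e-07, edgeR). Caprin2 of the same list rose by 1.89, and its place among negative regulators of these receptors was not checked. Spry2, an inhibitor of receptor tyrosine kinase signalling, rose by 1.84 (SE 0.33, adjusted p = 0.00043, edgeR). Ptpn2, encoding the phosphatase TC-PTP that acts on PDGFRβ, fell by 2.23 (adjusted p = 2.4e-07, edgeR), the adaptor gene Sh2b3 fell by 1.68 and the phosphatase gene Ptpn12 fell by 1.03. Over the 4 lists together, 65 genes were tested, of which 14 were lower, 18 higher and 33 not called, with a median log2 fold change of 0.22. Calls were less frequent there than the 59.3% in either direction among all genes, and this difference was not tested. With library size alone 7 were lower and 28 higher, against 17.0% lower and 43.9% higher among all genes.

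**Figure D4:**
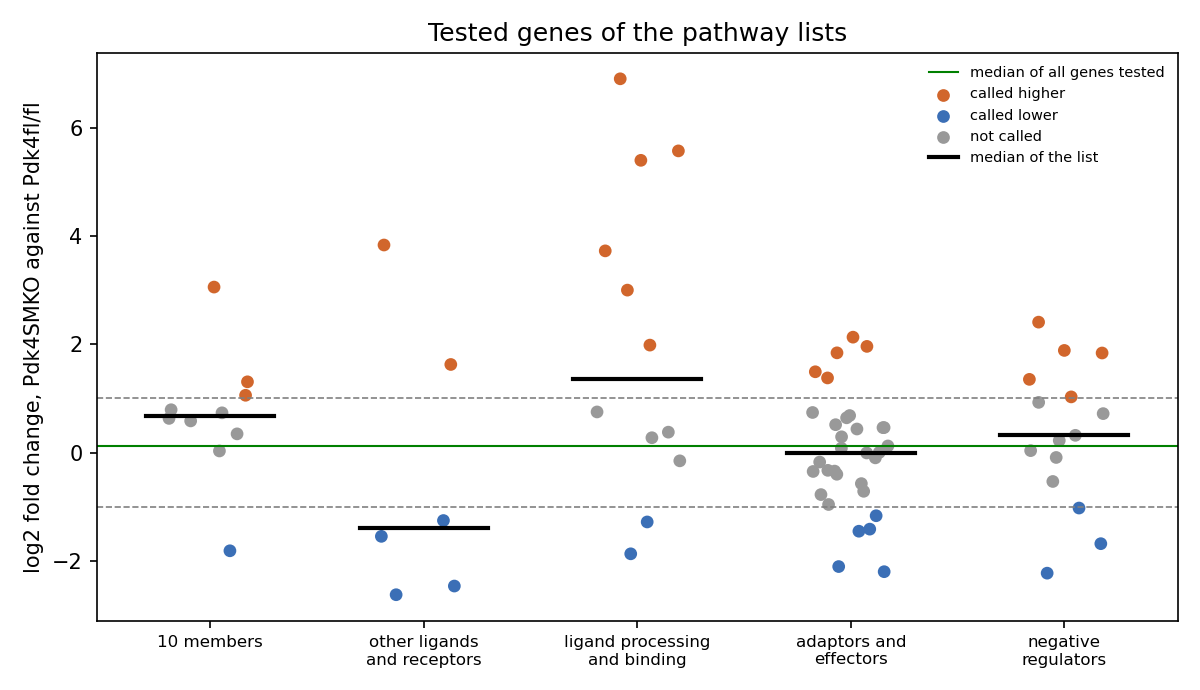
Log2 fold change of Pdk4SMKO against Pdk4fl/fl for each gene tested in the 10 genes and the 4 surrounding lists, colored by call, with the median of each list as a black line and that of all genes (0.12) as a green line. The processing and binding genes have a median of 1.37, and the adaptors and effectors one of -0.003 with 5 genes called on each side.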

How the data were processed

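RNA-seq libraries of MASMCs from both genotypes were assigned to their genotype from the labels. The authors deposited raw counts of reads per gene for the 6 libraries in 1 table, without normalization. Aligner, counting program and use of strand are not given in the sources used here. The labels name 1 library kit and the methods another. Per the labels the build was GRCm39, but the gene identifiers belong to the Ensembl C57BL/6NJ strain annotation, apart from 625 rows. Coordinates of genes are those of the table, and promoters those of RefSeq for GRCm38.p6, and these were never combined.

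Genes were filtered with filterByExpr, normalized by TMM and tested with edgeR 4.0.16 (R 4.3.3, quasi-likelihood, genotype alone), with Benjamini-Hochberg adjustment over 14085 genes. Values of single genes and shares were compared by exact two-sided permutation tests (scipy 1.17.1), which cannot go below 0.1 here. The fit was tested on simulated data in which few genes changed, evenly in both directions. That test therefore does not cover the scaling, on which the calls here depend. The floor was set at 3 counts, and covers counting error only.

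The genes and lists were chosen with earlier results of these data known. Named were all 10 genes, the further ligands and receptors in the table, Pdk4, Xist, Lyz2, and the 3 lowest and 3 highest called genes of each other pathway list. Ccbe1, Thbs1, Lrp1, Plau, Furin, Plg, Adamts3, Sos1, Pik3r2 and 6330403L08Rik were added after their values were seen, and markers are given by counts, sums and examples. Alternatives were other scalings, filters, DESeq2 1.42.0, a replicate block, no division by length, and leaving out each library.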

Additional observations from a re-analysis of the deposited data

How the results depend on the processing

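Vegfb was called lower and Nrp1 higher under every alternative run, and Vegfc wherever it was tested. Pdgfrb lost its call without Pdk4fl/fl replicate 3 or Pdk4SMKO replicate 2 and kept it under the others. With library size alone 2390 genes (17.0%) were lower and 6184 (43.9%) higher, against 26.5% and 32.8% with TMM scaling. Called higher were then 7 of the 10 genes in place of 3, and 7 pathway genes were lower and 28 higher. Pdgfa (1.34), Pdgfb (1.18), Pdgfc (1.40) and Pdgfd (1.24) then passed the 2-fold limit, and Pdgfc also passed it with upper-quartile factors (1.00). At an adjusted p under 0.05 alone, 7 of the 10 genes, against 42.0% of all genes, and 28 pathway genes were higher. Pdgfra passed that limit with upper-quartile factors (0.56, adjusted p = 0.014), library size alone (0.94, adjusted p = 0.00081) and the minimum of 10 counts (0.44, adjusted p = 0.042). With no filter on low counts 4360 genes were lower and 5693 higher, while a minimum of 10 counts per library gave 2785 and 3165. The number of the 10 genes called higher was 2 to 3 without single libraries. Without division by length, the difference in share was -3.38 percentage points for Pdgfra and 18.0 for Vegfa. The Pdgfa share difference ranged from -1.02 to 4.19 without single libraries, and its sign turned without Pdk4fl/fl replicate 1 (-0.24) or replicate 2. The Vegfa log2 fold change was also just below 0 with RLE factors and with DESeq2. The cause of these changes was not tested.

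The replicate numbers are not known to pair the samples. Deviations of same-numbered libraries correlated at 0.038, 0.061 and 0.18, and not every library correlated best with its own number. With a replicate block, 3704 genes were lower and 4577 higher, 3 of the 10 genes were higher and 1 lower, and 14 pathway genes were lower and 18 higher, as without it for the 10 genes and the pathway lists. Depth limits genes with few counts in Pdk4fl/fl, among them Vegfc, Pgf, Pcsk5 and Pcsk6.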
